A study of Mus musculus with 9 samples.

Results

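The photoreceptor outer segment is a modified primary cilium, joined to the cell body by a connecting cilium, and the 41 genes described here encode proteins that build it and move cargo through it. They are a list of gene names: 11 subunits of intraflagellar transport complex B (IFT-B), 3 of complex A (IFT-A), 8 subunits of the BBSome, 3 chaperonin-like proteins that assemble the BBSome, 2 proteins that recruit or regulate it, 9 proteins of the transition zone and centrosome, and 5 proteins of lipidated cargo trafficking. All 41 were among the 25239 gene names of the deposited tables, each in a single row, and all 41 were among the 15198 genes that were tested for genotype (mean of at least 1 TPM, a transcript level scaled for gene length and library depth, over the 9 libraries). Since every member passed this limit in all genotypes together, no member was lost by it.

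Whole retinas of C57BL/6J mice at P42 were sequenced from 3 wild type (+/+), 3 heterozygous Rbpms-CreERT2/+ (Cre/+) and 3 homozygous Rbpms-CreERT2/CreERT2 (Cre/Cre) litter mates, with both retinas of a mouse in each library. The knock-in allele places P2A and CreERT2, a tamoxifen-dependent Cre recombinase, behind the last codon of Rbpms, a gene of retinal ganglion cells, so that the inserted sequence is transcribed with Rbpms under the promoter of that gene. The labels give no floxed allele and no drug for these animals, and the +/+ litter mates carry neither insertion. The comparisons ask whether 1 or both knock-in alleles went with a different retinal transcriptome.

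Intraflagellar transport carries proteins along the ciliary microtubules, with IFT-B needed for the outward and IFT-A for the return journey. The BBSome is a coat that rides on these trains and takes membrane proteins out of the cilium, and the transition zone at the base is the gate between cilium and cell body. Lipid-modified proteins of phototransduction are carried to the outer segment in solution by UNC119 and PDE6D, and are released from them by the small GTPase ARL3. Variants in many of these genes cause retinal degeneration, either alone or with disease of the kidney and other ciliated organs. In bulk tissue, fewer cells of a type and less RNA per cell cannot be told apart.

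The libraries held 4.05 to 4.65 aligned gigabases each. Levels of the targeted gene Rbpms were 38.4 to 43.4 TPM in wild type, 31.3 to 33.1 TPM in heterozygous and 19.1 to 24.2 TPM in homozygous retinas. Cre/Cre replicate 1 stood apart: the ribosomal RNA precursor Rn45s made up 9.21% of its TPM, against 0.0827% to 0.336% in the other 8 libraries, and over genes the median ratio to the mean of the libraries was 0.917, against 0.985 to 1.03. Xist, the long RNA that silences an X chromosome in female cells, had 2.08 to 3.16 TPM in Cre/+ replicate 3 and in Cre/Cre replicates 1 and 3, and 516 to 585 TPM in the other 6, so all 3 +/+ libraries lay on the high side. Summed TPM of 6 cone markers, which include Arr3 and Gnat2, was 2456 to 2597 in +/+, 2451 to 2584 in Cre/+ and 2395 to 2655 in Cre/Cre, with the lowest value in Cre/Cre replicate 1. Summed TPM of 7 rod markers, among them Gnat1 and Sag, was 27860.0 to 28198 in +/+, 28047 to 29232 in Cre/+ and 24361 to 28950 in Cre/Cre, again with the lowest value in Cre/Cre replicate 1. Mueller glia markers summed to 3765 to 4209 TPM in +/+, 3989 to 4229 TPM in Cre/+ and 3477 to 3851 TPM in Cre/Cre, and pigment epithelium markers to 14.5 to 38.9, 28.6 to 72.9 and 21.2 to 41.1 TPM. The 6 retinal ganglion cell markers, Rbpms among them, summed to 1243 to 1270 TPM in +/+, 1169 to 1200 TPM in Cre/+ and 909 to 1080 TPM in Cre/Cre, and 5 erythroid genes to 150 to 182, 92.5 to 105 and 185 to 300 TPM. The 6 lens genes summed to 902 TPM in Cre/Cre replicate 2 and to 10.7 to 201 TPM elsewhere. The 9 genes of motile cilia, which the cells of the retina do not bear, summed to 55.3 to 64.6 TPM. Of these genes, 4 had a mean under 1 TPM, while Ccdc39 alone had a mean of 40.5 TPM. The part of these differences in the values of the cilium genes was not tested, except where a fit without the library or with Xist as a covariate is given.

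The upstream sequences of the genes were read for the motifs of 2 families of transcription factors, to show what the members share beyond their names. RFX factors bind the X-box, an imperfect inverted repeat known from the promoters of ciliary genes, and CRX and OTX2, the homeodomain factors of photoreceptors, bind TAATCC. RefSeq promoters of GRCm38.p6, from 250 bases before to 50 bases after the transcript start, were at hand for 36 of the 41 members, and both strands were searched. Ift80, Ift81, Ift122, Tmem67 and Sdccag8 had no entry. An X-box was found in 3 of 36 members (8.33%), Lztfl1, Ift57 and Ahi1, and in 1.09% of 27025 genes and 1.07% of the 11669 genes with a promoter that were tested. The 3 matches are shown with the X-box in capitals, read 5′ to 3′ in the direction of the gene, at chr9:123717767-123717797 (minus strand), chr16:49699226-49699254 (plus) and chr10:20952560-20952589 (plus).
Lztfl1: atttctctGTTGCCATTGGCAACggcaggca
Ift57: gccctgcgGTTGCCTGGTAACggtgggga
Ahi1: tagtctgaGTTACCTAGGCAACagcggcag
The matches began at positions -164, -60 and 22 from the transcript start, the last of these being inside the transcript. GTTGCC, which forms 1 arm of the X-box, stood in 13 of 36 members (36.1%), among them the 3 with a whole X-box, whose arms it overlaps, and in 14.1% of all genes and 14.8% of those tested. The window of Bbs7, the BBSome subunit with the highest TPM, shows GTTGCC outside a whole X-box at position -121, at chr3:36613493-36613522 (minus strand). The bases ggaaac that follow closely resemble a second arm but did not match the pattern searched.
Bbs7: gaatgcgccccgGTTGCCttggaaaccggc
The median GC content was 57.7% in the members and 60.7% in the genes tested. These are counts of letters, and no test was made of them.

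TAATCC stood in 3 of 36 members (8.33%), Bbs1, Rpgrip1 and Unc119, and in 8.14% of all genes and 7.18% of those tested. The share in the members was thus near that of all genes. Of these 3, Unc119 and Rpgrip1 were the members with the highest and the second highest level in the retina. Whether the motif goes with the level was not tested. The 150 bases before their starts are printed with the motif in capitals. It lies on the opposite strand in both and therefore reads GGATTA. The window of Rpgrip1 is chr14:52110753-52110902 and that of Unc119, at the second of its 3 listed starts, chr11:78345434-78345583, both on the plus strand of GRCm38.p6. The Unc119 window lies inside the span of that gene, which begins at position 78343495.
Rpgrip1: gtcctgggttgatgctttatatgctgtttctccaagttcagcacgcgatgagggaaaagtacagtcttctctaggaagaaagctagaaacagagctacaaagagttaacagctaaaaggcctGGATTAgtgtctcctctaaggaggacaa
Unc119: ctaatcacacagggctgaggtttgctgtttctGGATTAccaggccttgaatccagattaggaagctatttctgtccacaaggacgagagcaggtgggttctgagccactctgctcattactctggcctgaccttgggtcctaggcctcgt
The matches began at positions -28 and -118. The letters describe these windows only, and binding was not measured.

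The levels of the members spanned a 190-fold range in wild type retina. TPM is scaled by gene length, so levels may be set beside each other. Unc119 alone made up 39.2% of the summed TPM of the 41 members, and with Rpgrip1 and Arl3 59.0%. Of the 41 members, 12 had a +/+ mean above 100 TPM, 21 lay between 30 and 100 TPM and 8 below 30 TPM. Over all libraries their median was 60.5 TPM, where that of the genes tested was 26.5 TPM. The lowest member, Rp2, was at the 36.6th percentile of the genes tested and the median member at the 74.5th. In the order of +/+ means, 13 of the 40 pairs of neighbours had libraries that did not overlap, and 27 pairs overlapped and were not told apart by these libraries. Unc119 stood clear of Rpgrip1, and Rpgrip1 (rank 2) overlapped Arl3 (rank 3), which in turn stood clear of Pde6d. The coefficient of variation over the 3 libraries of a genotype had a median of 5.82% in +/+, 4.88% in Cre/+ and 9.91% in Cre/Cre.

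**Figure D1:**
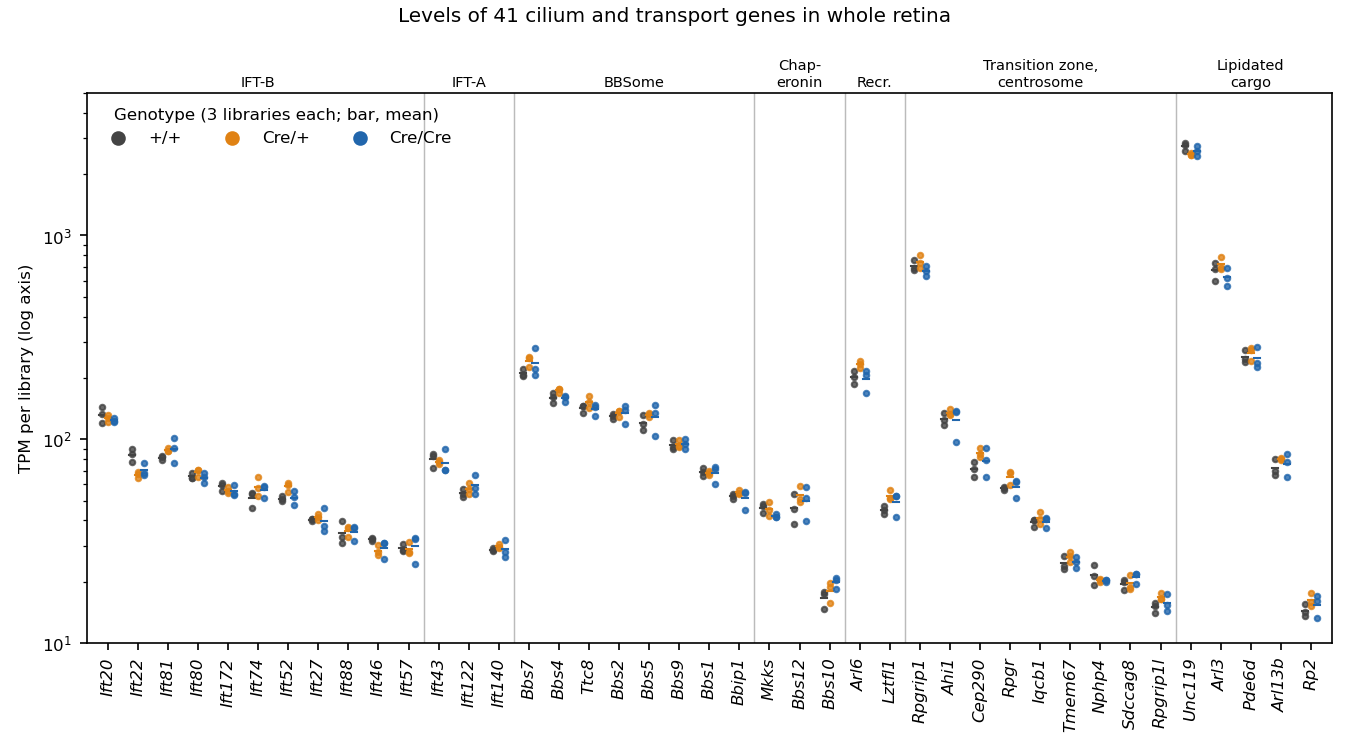
Levels of the 41 members in TPM (log axis), ordered by group and by +/+ mean, with 1 point for each of the 9 libraries and a bar at the mean of 3 libraries of a genotype. Unc119 lies at 2468 TPM or more in every library and Rp2, Rpgrip1l and Bbs10 lie near the foot of the axis, while the 3 genotypes of most members lie on top of each other.

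No member passed an adjusted p of 0.05 in any contrast. In limma across the 15198 genes, 0 of 41 members were called in Cre/+ against +/+, 0 in Cre/Cre against +/+, 0 in Cre/Cre against Cre/+ and 0 in the trend per knock-in allele, where 0.00658%, 0.00658%, 0.0132% and 0.00658% of all genes were. At an unadjusted p under 0.05, Cre/+ had 4 members higher than +/+ (4.9% of all genes) and 1 member lower (5.82% of all genes). For Cre/Cre these were 1 member higher (1.58% of all genes) and 1 member lower (5.39% of all genes). Between the knock-in genotypes, 0 members were higher and 3 lower in Cre/Cre than in Cre/+ at this limit, with 2.38% and 4.2% of all genes. The 95% intervals show how large a difference remains possible: for all 41 members and in every contrast they lay within a 1.5-fold change on the log2(TPM + 1) scale. Against +/+ the bounds reached from -0.49 (Ift22) to 0.55 (Bbs12) in Cre/+ and from -0.42 (Ift22) to 0.49 (Bbs10) in Cre/Cre, with a median half-width of 0.20. An interval of this kind covers single genes and is not adjusted for their number. The animals were separate mice, so p-values measure the spread between mice, handling and libraries together.

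Among the IFT-B subunits, Ift22 was the member with the lowest p against +/+, and the rest moved in both directions. Ift22, also called Rabl5, encodes a small GTPase-like subunit of IFT-B, at chr5:136908150-136913244 of mm10. It had 77.4, 89.3 and 84.5 TPM in the +/+ libraries, 67.5, 69.2 and 64.2 in those of Cre/+ and 66.6, 68.2 and 76.3 in those of Cre/Cre, in the order of the replicates. All 6 knock-in libraries were below the lowest +/+ library, and the 2 knock-in genotypes overlapped. The log2 fold change was -0.32 ± 0.081 (SE; adjusted p = 0.327, limma) in Cre/+ and -0.25 ± 0.081 (SE; adjusted p = 0.594, limma) in Cre/Cre, so neither passed the adjusted limit, although the unadjusted p were 0.00133 and 0.00784. Ift46 (chr9:44773009-44792714), whose product is required for IFT-B stability, showed the same order at a lower level, with 31.7, 32.4 and 32.6 TPM in +/+, 27.8, 30.1 and 27.1 TPM in Cre/+ and 31.0, 25.9 and 30.8 TPM in Cre/Cre retinas. Its +/+ libraries differed by less than 1 TPM, and all 6 knock-in libraries lay below them. Its log2 fold change was -0.18 ± 0.091 (SE; adjusted p = 0.480, limma) in Cre/+ and -0.14 ± 0.091 (SE; adjusted p = 0.829, limma) in Cre/Cre, the latter being -0.060 without Cre/Cre replicate 2. These were the 2 members for which all 6 knock-in libraries were below +/+, where 3.63% of all genes were. No member had all 6 above +/+, where 0.908% of all genes did.

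Ift52 (chr2:163017353-163046139), a scaffold subunit of the IFT-B core, was higher in Cre/+ than in the other genotypes by its means. It had 49.5, 52.5 and 50.8 TPM in the +/+ libraries, 59.8, 55.3 and 61.0 in those of Cre/+ and 47.8, 51.8 and 55.6 in those of Cre/Cre. The Cre/+ libraries were all above the +/+ libraries, and the Cre/Cre libraries overlapped both other genotypes. The log2 fold change was 0.20 ± 0.080 (SE; adjusted p = 0.410, limma) in Cre/+ and 0.019 ± 0.080 (SE; adjusted p = 0.988, limma) in Cre/Cre. Ift20, which moves cargo from the Golgi to the cilium and had the highest level of the complex, had TPM of 132, 144 and 119.8 in +/+, of 131, 127 and 122 in Cre/+ and of 122, 123 and 127 in Cre/Cre. Ift57, the lowest of the complex and one of its peripheral subunits, had TPM of 28.3, 28.7 and 30.4 in +/+, of 27.9, 27.7 and 31.3 in Cre/+ and of 24.5, 32.7 and 32.2 in Cre/Cre. Both overlapped between all genotypes. The other 6 were Ift27, Ift74, Ift80, Ift81, Ift88 and Ift172, among which IFT81 and IFT74 bind tubulin and IFT172 acts at the tip where trains turn round. Of these 6, Ift81 was the only member whose Cre/+ libraries were apart from +/+, at 87.5 to 90.8 TPM against 78.7 to 82.4 TPM. Over the 11 subunits the median log2 fold change was 0.040 in Cre/+ (6 above 0) and -0.024 in Cre/Cre (5 above 0).

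The 3 IFT-A subunits differed little. Ift43 had 72.4, 83.0 and 84.4 TPM in +/+, 78.9, 77.7 and 75.3 TPM in Cre/+ and 70.7, 89.4 and 70.2 TPM in Cre/Cre retinas, and Ift140, the lowest of them, 29.4, 28.2 and 28.5 TPM in +/+, 29.4, 29.5 and 30.7 TPM in Cre/+ and 26.4, 28.1 and 31.9 TPM in Cre/Cre retinas. Ift43 overlapped between genotypes. The Cre/+ libraries of Ift140 lay just above those of +/+, at a log2 fold change of 0.057 ± 0.088 (SE; adjusted p = 0.840, limma). Ift122 had +/+, Cre/+ and Cre/Cre means of 54.4 ± 2.47 TPM, 57.1 ± 3.69 TPM and 59.6 ± 6.68 TPM (SD, n = 3). The median log2 fold change of the 3 was 0.057 in Cre/+ and 0.0026 in Cre/Cre.

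**Figure D2:**
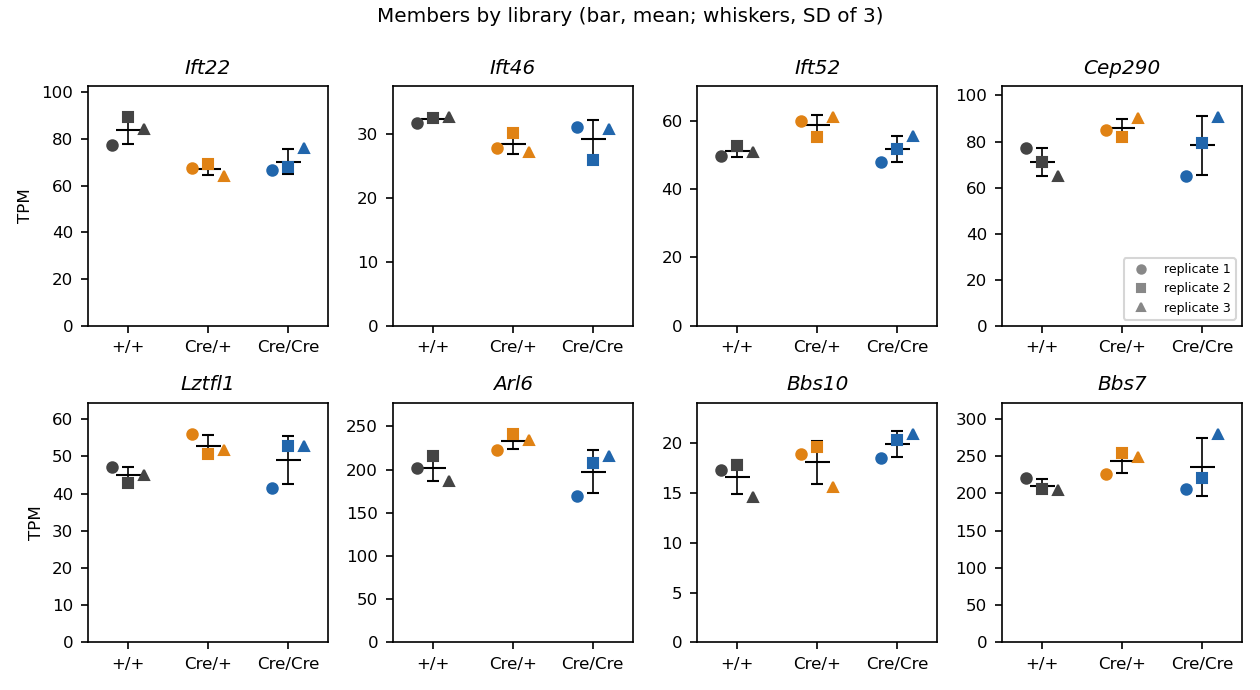
TPM of 8 members in each library (circle, square and triangle for replicates 1, 2 and 3), with a bar at the mean and whiskers of 1 SD over 3 libraries; each axis starts at 0. Ift22 and Ift46 lie lower in both knock-in genotypes than in +/+, Ift52, Cep290, Lztfl1, Arl6 and Bbs7 are higher in Cre/+ than in +/+, and Cre/Cre replicate 1 is the lowest Cre/Cre library for 7 of the 8, all but Ift46.

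The +/+ means of the BBSome subunits had a median of 125 TPM, against 51.4 TPM for IFT-B, and went from 52.6 TPM for Bbip1 to 211 TPM for Bbs7. Bbs7 (chr3:36573143-36613389), a propeller-domain subunit, had 221, 206 and 204 TPM in the +/+ libraries, 226, 254 and 249 in those of Cre/+ and 206, 220.4 and 280.1 in those of Cre/Cre. Its Cre/+ libraries were all above +/+, and the Cre/Cre libraries spread across both. The log2 fold change was 0.20 ± 0.10 (SE; adjusted p = 0.468, limma) in Cre/+ and 0.15 ± 0.10 (SE; adjusted p = 0.836, limma) in Cre/Cre, and the latter was 0.018 without Cre/Cre replicate 3 and 0.24 without Cre/Cre replicate 1. Bbip1, the smallest subunit, had 52.7, 51.1 and 54.0 TPM in +/+, 56.3, 53.7 and 54.7 TPM in Cre/+ and 45.1, 54.9 and 54.4 TPM in Cre/Cre retinas, and its genotypes overlapped. The other 6 were Bbs1, Bbs2, Bbs4, Bbs5, Bbs9 and Ttc8 (BBS8), of which BBS1 binds ARL6. Their libraries overlapped those of +/+ in both knock-in genotypes, and their means were 98.7% to 109% of the +/+ mean. The median log2 fold change of the 8 subunits was 0.081 in Cre/+, where 7 of 8 were above 0, and 0.0028 in Cre/Cre, where 4 of 8 were. Bbs4 was lower in all 3 Cre/Cre than in all 3 Cre/+ libraries, at 153 to 163 TPM against 169 to 177 TPM, and 160.1 ± 9.66 TPM (SD, n = 3) in +/+.

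The chaperonin-like genes Mkks (BBS6), Bbs10 and Bbs12, which assemble the BBSome core together with the CCT chaperonin, had low to middling levels. Bbs10 (chr10:111298679-111301736) had 17.3, 17.8 and 14.6 TPM in the +/+ libraries, 18.9, 19.6 and 15.6 in those of Cre/+ and 18.5, 20.3 and 20.9 in those of Cre/Cre. All 3 Cre/Cre libraries lay above all 3 +/+ libraries, and Cre/+ overlapped both. Its log2 fold change of 0.25 ± 0.11 (SE; adjusted p = 0.704, limma) in Cre/Cre was the highest of the members in that contrast, with a 95% interval of 0.010 to 0.49, and in Cre/+ it was 0.11 ± 0.11. Bbs12 had TPM of 53.9, 45.3 and 38.2 in +/+, of 51.1, 59.1 and 49.3 in Cre/+ and of 39.7, 51.7 and 58.0 in Cre/Cre, with a coefficient of variation of 17.2% in +/+, the highest of the 41 members there, and overlapped between genotypes. The Cre/Cre libraries of Mkks, at 41.5 to 42.9 TPM, lay below those of +/+, at 43.2 to 48.0 TPM, with a log2 fold change of -0.13 ± 0.081 (SE; adjusted p = 0.823, limma). Of the annotated exon bases of Mkks, 29.2% are shared with other genes on the same strand, so that its TPM is uncertain.

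Both genes that act on the BBSome from outside had higher levels in the Cre/+ than in the +/+ libraries, and neither difference passed the adjusted limit. Arl6 (BBS3, chr16:59612949-59639409) encodes the small GTPase that brings the BBSome to membranes. It had 202, 216 and 187 TPM in the +/+ libraries, 223, 241 and 234 in those of Cre/+ and 169, 208 and 216 in those of Cre/Cre. All Cre/+ libraries were above all libraries of the other genotypes, and Cre/Cre replicate 1 was the lowest of the 9. The log2 fold change was 0.21 ± 0.092 (SE; adjusted p = 0.447, limma) in Cre/+, -0.035 ± 0.092 in Cre/Cre and -0.24 ± 0.092 (SE; adjusted p = 0.740, limma) between Cre/Cre and Cre/+, the last being -0.13 without Cre/Cre replicate 1. Lztfl1 (BBS17, chr9:123694406-123717625), whose product binds the BBSome and limits its entry into the cilium, had 47.1, 42.8 and 45.1 TPM in the +/+ libraries, 56.1, 50.7 and 51.8 in those of Cre/+ and 41.6, 52.7 and 52.8 in those of Cre/Cre. Its Cre/+ libraries were above those of +/+, 2 Cre/Cre libraries were at the Cre/+ level and Cre/Cre replicate 1 was below every +/+ library. The log2 fold change was 0.23 ± 0.095 (SE; adjusted p = 0.424, limma) in Cre/+ and 0.11 ± 0.095 in Cre/Cre. Since all Cre/+ libraries of Arl6 and Lztfl1 lay above all +/+ libraries, leaving out 1 library could not turn their direction.

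The transition zone and centrosome genes ranged 47.4-fold in +/+, from 15.0 TPM for Rpgrip1l to 710.0 TPM for Rpgrip1. Rpgrip1, which anchors RPGR at the connecting cilium of photoreceptors, had 759, 678 and 693 TPM in the +/+ libraries, 802, 688 and 732 in those of Cre/+ and 630.1, 672 and 706 in those of Cre/Cre. Its paralog Rpgrip1l, a transition zone protein of cilia in many tissues, had TPM of 15.7, 14.0 and 15.2 in +/+, of 16.5, 16.5 and 17.5 in Cre/+ and of 14.4, 15.3 and 17.3 in Cre/Cre. Rpgrip1 overlapped between all genotypes, and the Cre/+ libraries of Rpgrip1l lay above those of +/+, at a log2 fold change of 0.16 ± 0.11 (SE; adjusted p = 0.574, limma). Cep290 (chr10:100487582-100575671), which links the microtubules of the transition zone to its membrane and is often mutated in Leber congenital amaurosis, had 77.3, 71.1 and 65.2 TPM in the +/+ libraries, 85.0, 82.0 and 90.3 in those of Cre/+ and 65.2, 79.2 and 90.5 in those of Cre/Cre. Its Cre/+ libraries were above those of +/+, and the Cre/Cre libraries reached from the lowest to the highest of all 9. The log2 fold change of 0.27 ± 0.10 (SE; adjusted p = 0.409, limma) in Cre/+ was the highest of the members in that contrast, and in Cre/Cre it was 0.13 ± 0.10 (SE; adjusted p = 0.885, limma). The remaining members were Nphp4, Iqcb1 (NPHP5), Ahi1, Tmem67 (meckelin) and Sdccag8, in which libraries of +/+ and of either knock-in genotype overlapped. Of the 9 genes, 8 had a log2 fold change above 0 in Cre/+ (median 0.10) and 6 in Cre/Cre (median 0.019). Exon bases are shared with genes on the opposite strand in Cep290 (7.58%), Rpgrip1 (8.70%), Tmem67 (5.42%) and Sdccag8 (0.75%). Rpgr shares 2.87% with a gene on the same strand. In the other groups the largest share on the opposite strand was 7.86% (Ift57), and that of Lztfl1 was 4.39%. The library kit marks strand, and whether strand was used in quantification is not given in the sources used here.

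Rpgr and Rp2 are the X-linked members, and both are mutated in X-linked retinitis pigmentosa. Rpgr (chrX:10158216-10216795), whose product regulates transport at the connecting cilium, had 57.3, 58.6 and 56.5 TPM in the +/+ libraries, 69.1, 59.5 and 68.1 in those of Cre/+ and 51.5, 62.6 and 61.3 in those of Cre/Cre. Its Cre/+ libraries were all above +/+, where the 3 libraries differed by about 2 TPM, and Cre/Cre replicate 1 was the lowest of the 9. Rp2 (chrX:20364481-20405653), the GTPase-activating protein of ARL3 and the lowest member, had 15.6, 13.5 and 14.2 TPM in +/+, 16.0, 15.1 and 17.6 TPM in Cre/+ and 13.2, 17.1 and 16.0 TPM in Cre/Cre retinas, and its genotypes overlapped. With Xist as a covariate the log2 fold change of Rpgr in Cre/+ went from 0.18 ± 0.089 to 0.20 ± 0.097 (adjusted p = 0.505, limma), and in Cre/Cre from 0.019 ± 0.089 to 0.046 ± 0.11. That of Rp2 went from 0.16 ± 0.12 to 0.17 ± 0.13 in Cre/+ and from 0.085 ± 0.12 to 0.11 ± 0.15 in Cre/Cre.

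Lipidated cargo trafficking held the highest levels of the members. Unc119 (chr11:78343495-78349164), which binds the myristoylated alpha subunit of rod transducin, had 2591, 2785 and 2858 TPM in the +/+ libraries, 2551, 2496 and 2470.5 in those of Cre/+ and 2468, 2743 and 2591 in those of Cre/Cre. The Cre/+ libraries were all below +/+, at a log2 fold change of -0.13 ± 0.068 (SE; adjusted p = 0.487, limma), and Cre/Cre overlapped +/+ with -0.078 ± 0.068. Arl3 (chr19:46531109-46573182), the GTPase that releases cargo from UNC119 and PDE6D, had 596, 736 and 687 TPM in +/+, 685, 788 and 702 TPM in Cre/+ and 563, 619.7 and 690.0 TPM in Cre/Cre retinas. It overlapped +/+ in both knock-in genotypes, and was lower in Cre/Cre than in Cre/+ at an unadjusted p under 0.05, at a log2 fold change of -0.22 ± 0.094 (SE; adjusted p = 0.740, limma). Along with Arl3, Arl6 and Ift52 (-0.18 ± 0.080) made up the 3 members lower in Cre/Cre than in Cre/+ at that limit. Without Cre/Cre replicate 1, 0 members passed it there. Pde6d, which carries prenylated cargo such as the rod phosphodiesterase, had means of 253 ± 18.4 TPM, 265 ± 21.0 TPM and 249 ± 29.9 TPM in +/+, Cre/+ and Cre/Cre (SD, n = 3). For Arl13b, the exchange factor of ARL3 and a Joubert syndrome gene, they were 72.3 ± 6.72 TPM, 80.2 ± 1.10 TPM and 76.0 ± 9.81 TPM. Neither Pde6d nor Arl13b stood apart from +/+ in either genotype.

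As a list, the members lay slightly to the higher side in Cre/+. The median log2 fold change of the 41 was 0.068 (0.0014 for all genes tested), and 31 of 41 (75.6%) were above 0, against 50.4% of all genes. In Cre/Cre the median was 0.010 (all genes -0.024) with 22 of 41 (53.7%) above 0, against 42.3% of all genes. Between Cre/Cre and Cre/+ it was -0.057 (all genes -0.030) with 9 of 41 above 0, against 40.8% of all genes. Members come from the same 9 libraries, so that these counts are not 41 separate observations, and both contrasts with +/+ use the same 3 +/+ libraries. In Cre/+, 9 members had libraries that did not overlap +/+ on the higher side (Ift52, Ift81, Ift140, Bbs7, Arl6, Lztfl1, Cep290, Rpgr and Rpgrip1l) and 3 on the lower side (Ift22, Ift46 and Unc119), where 11.9% and 10.3% of all genes did. The higher side holds 22.0% of the members and the lower side 7.32%. In Cre/Cre 1 member did so on the higher side (Bbs10) and 3 on the lower side (Ift22, Ift46 and Mkks), where 2.7% and 8.05% of all genes did.

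**Figure D3:**
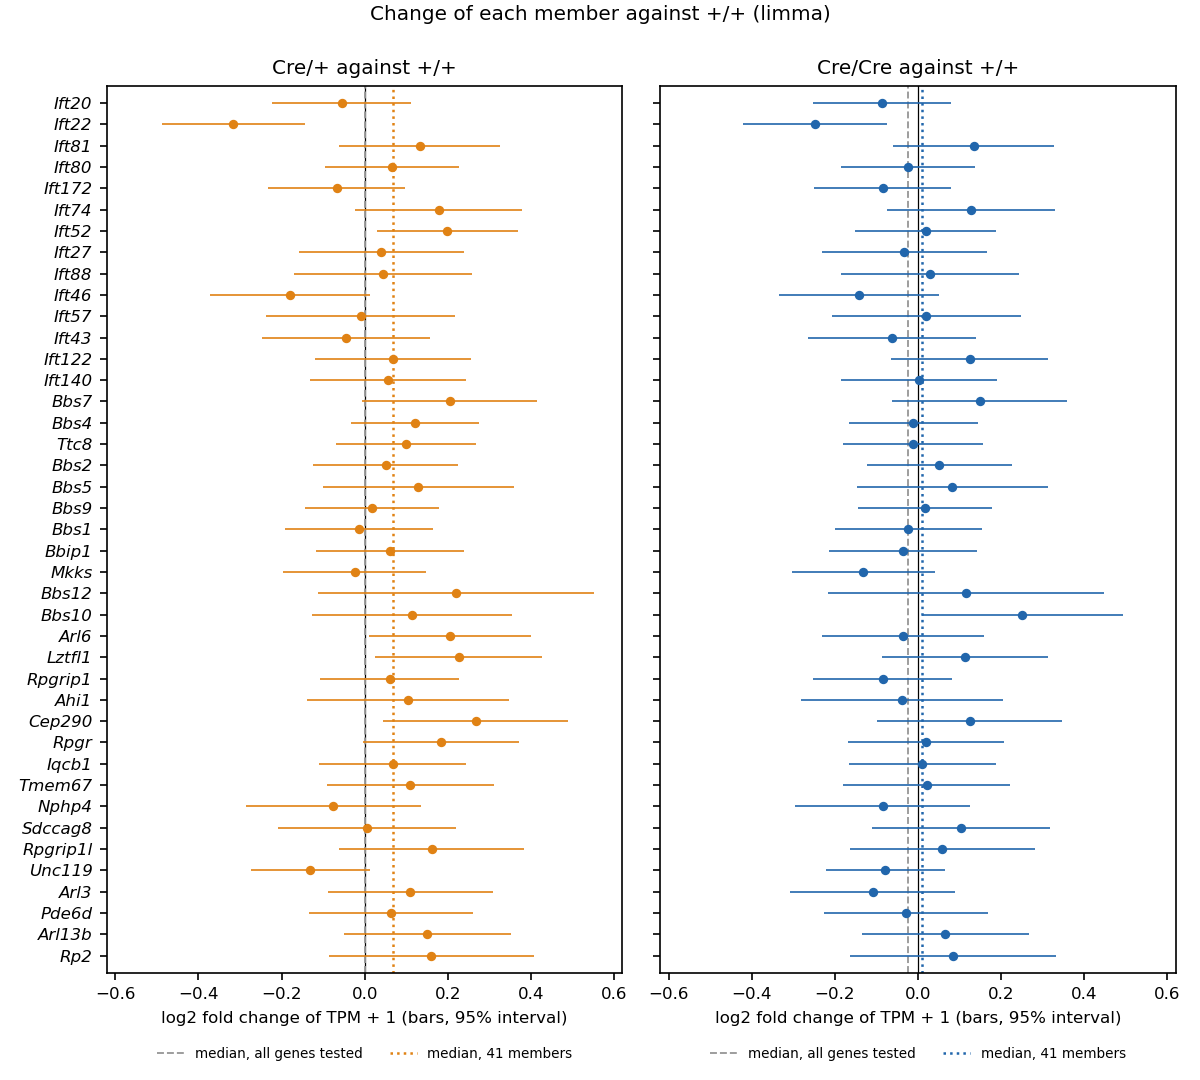
Log2 fold change of TPM + 1 for each member in Cre/+ and in Cre/Cre against +/+, with 95% intervals from limma over 9 libraries; the dashed line is the median of all genes tested and the dotted line that of the 41 members. Intervals leave out 0 for 5 members in Cre/+ and for 2 in Cre/Cre, and no member was called after adjustment.

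Cre/Cre replicate 1, which stood apart above, had the lowest value of the 9 libraries for 23 of 41 members and the highest for 0. Cre/Cre replicate 3 had the highest for 12, and Cre/+ replicate 3 for 9. The same counts were not made over all genes. The median log2 deviation of Cre/Cre replicate 1 from its genotype mean was -0.109 for the members and -0.100 for all genes tested. For Cre/Cre replicate 3 these were 0.086 and 0.058, and for Cre/+ replicate 3 they were 0.023 and 0.016. The summed TPM of the members was 6284 in Cre/Cre replicate 1 and 6872 to 7130 in the other 8 libraries. By group, Cre/Cre replicate 1 had 85.4% to 95.1% of the +/+ mean, and Cre/Cre replicates 2 and 3 had 97.5% to 113%. The Cre/+ libraries had 94.3% to 118%, with the highest values for Arl6 and Lztfl1 together, at 113% to 118%, and all 3 below 100% for lipidated cargo, at 94.3% to 97.4%. Without Cre/Cre replicate 1, the median log2 fold change of the members in Cre/Cre was 0.069 (all genes 0.024). In that fit 31 of 41 were above 0, against 56.2% of all genes. At an unadjusted p under 0.05, 7 were higher and 1 lower, where 5.90% and 3.58% of all genes were, and 0 were called. In the same fit Cre/+ had 7 members higher and 3 lower, where 8.82% and 7.54% of all genes were. When each library was instead scaled by its median ratio, Cre/+ had 6 members above and 2 below +/+ at that limit, where 8.06% and 7.82% of all genes were, and Cre/Cre had 2 above and 1 below, where 3.66% and 4.72% were. The medians were then 0.062 and 0.039 (all genes -0.0039 and 0.0031). Between Cre/Cre and Cre/+ the median was 0.0039 without Cre/Cre replicate 1, with 21 of 41 above 0 (all genes 0.017, with 56.0% above 0). With median-ratio scaling it was -0.023, with 16 of 41 above 0 (all genes 0.0029, with 50.8% above 0). With FPKM in place of TPM the median in Cre/Cre turned to -0.038, with 13 of 41 above 0, while that of all genes went to -0.070.

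**Figure D4:**
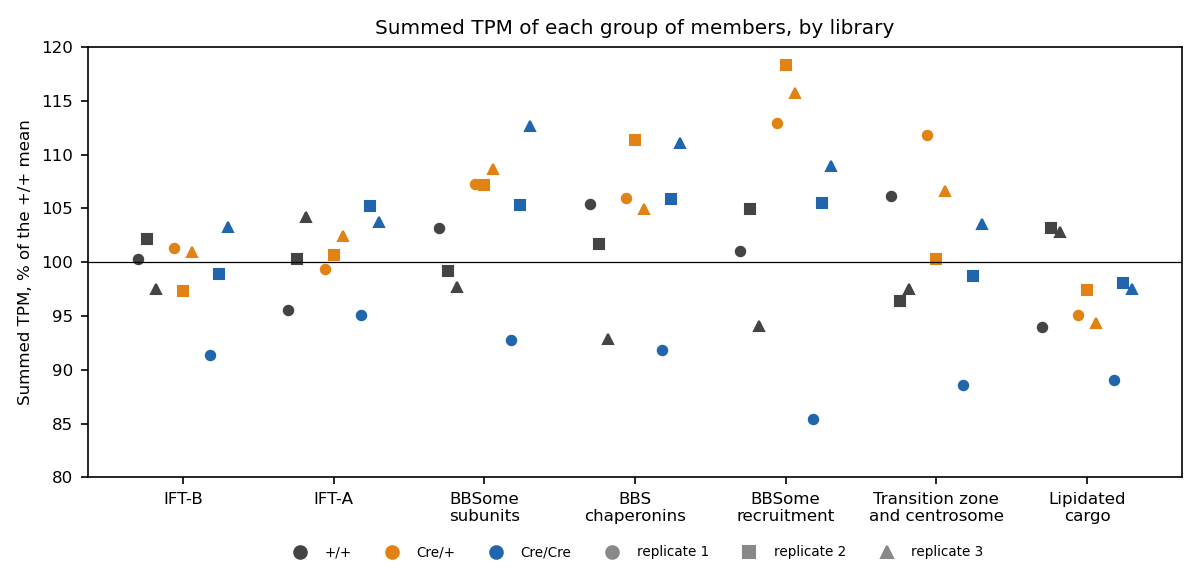
Summed TPM of each group of members in each library, in percent of the +/+ mean of that group; colours give the genotype and symbols the replicate, and the axis runs from 80% to 120%. Cre/Cre replicate 1 is the lowest library in all 7 groups, and the Cre/+ libraries of the BBSome recruitment genes lie at 113% to 118%.

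A further 68 genes of the same pathways, such as other IFT and BBSome-associated proteins, kinesin and dynein motors, transition zone and axoneme proteins, had a median of 43.1 TPM over all libraries, from 2.12 TPM for Kif7, a kinesin of hedgehog signalling, to 1909 TPM for Tulp1, a photoreceptor protein of vesicle transport. All 68 were tested, and 0 were called in any contrast. At an unadjusted p under 0.05, Cre/+ had 1 of them above and 3 below +/+ (4.9% and 5.82% of all genes), and Cre/Cre had 2 above and 1 below (1.58% and 5.39% of all genes). These genes are named after their values were seen. Rp1, a microtubule protein of the outer segment axoneme, was higher in Cre/+, with 934, 838 and 827 TPM in +/+, 1109.9, 1036 and 1066 TPM in Cre/+ and 809.6, 1036 and 1032 TPM in Cre/Cre retinas (log2 fold change 0.31 ± 0.091, adjusted p = 0.365, limma). Its Cre/+ libraries were above all +/+ libraries, and Cre/Cre replicate 1 was the lowest of the 9. Crocc (rootletin, the protein of the ciliary rootlet), Wdpcp and Wdr34, a dynein subunit, had log2 fold changes of -0.20, -0.33 and -0.23 in Cre/+, with adjusted p of 0.409 to 0.431 in limma. In Cre/Cre they were 0.21 for Mks1, 0.31 for Ttc30a1 and -0.29 for Ccdc28b, with adjusted p of 0.543 to 0.709 in limma. Ttc30a1 is uncertain, since near-identical copies of it can share its reads. The median log2 fold change of the 68 genes was 0.0026 in Cre/+ (34 above 0) and -0.010 in Cre/Cre (32 above 0). The wider list was thus split evenly in Cre/+, where the 41 members lay mostly above 0, and the difference between the lists was not tested.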

How the data were processed

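Bulk RNA-Seq tables of 9 whole retina libraries (3 +/+, 3 Cre/+ and 3 Cre/Cre mice at P42) were used. The authors sequenced strand-specific poly(A) libraries as paired reads, trimmed the reads (Trimmomatic), mapped them to mm10 (HISAT2) and let StringTie quantify each gene. Versions and the annotation are not given in the sources used here. The deposited TPM have the same sum in every library. The deposited FPKM was used as an alternative, and the deposited coverage, divided by FPKM, gave the aligned gigabases. The tables hold no counts, so the authors' DESeq2 test was not repeated and counting error per gene is unknown. A change in 1 abundant RNA shifts the TPM of all other genes.

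TPM was summed by gene name, and genes with a mean of at least 1 TPM over all libraries were tested on log2(TPM + 1) with limma 3.58.1 (R 4.3.3; trend and robust prior, genotype as the only term, 6 residual degrees of freedom, two-sided). The trend contrast used the number of knock-in alleles in place of genotype. A fold change on this scale understates that of low genes. The Benjamini-Hochberg adjustment ran over the 15198 genes tested, with a limit of 0.05. The members were not tested as a set. The fit was also run on simulated data, with independent errors and, for each gene, the same spread in all 9 libraries. These data lack the shift of Cre/Cre replicate 1, so no conclusion is drawn from them. Members, groups and the wider and marker lists were chosen with earlier results of these data known. One marker of the rod list is not reported here. Values in every library were given for the highest and lowest member of each group over all libraries, members at an unadjusted p under 0.05 or among the 3 with the largest change against +/+, those with both knock-in genotypes apart from +/+, and X-linked Rpgr and Rp2. Those of Arl3 and Rp1 were added after seeing the data. Alternatives were a pseudocount of 0.1, no filter, median-ratio scaling, FPKM, a replicate block, Xist as a covariate, only the genotypes compared, limma without the robust prior, and each library left out. Combinations of median-ratio scaling with the Xist covariate or without Cre/Cre replicate 1 were added after seeing the data. Gene positions are those of the deposited tables, exon overlaps come from GENCODE M21 (GRCm38) and promoters from RefSeq (GRCm38.p6). Figures were drawn with matplotlib 3.10.9.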

Additional observations from a re-analysis of the deposited data

How the results depend on the processing

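For the 3 contrasts between genotypes, 0 members were called under the 17 alternative settings and the 2 added after seeing the data, and for the trend under these except only the genotypes compared, which was not run there; none of the 14 fold changes followed, those at an unadjusted p under 0.05 and those of Ift22, Ift46 and Bbs7 against +/+, changed sign. Those at an unadjusted p under 0.05 were picked in these same data, so their unchanged sign is weak evidence. Where the libraries of 2 genotypes did not overlap, leaving out 1 library could not turn the sign. The median log2 fold change of the members ranged from 0.040 to 0.095 in Cre/+. In Cre/Cre it was 0.010 and ranged from -0.038 with FPKM to 0.069 without Cre/Cre replicate 1, and between Cre/Cre and Cre/+ from -0.10 without Cre/Cre replicate 3 to 0.0039 without Cre/Cre replicate 1, so that its sign turned in both. The count of members at an unadjusted p under 0.05 did depend on the settings, and the share of all genes at that limit moved too. In Cre/+ it was 5 (10.7% of all genes), 8 with median-ratio scaling (15.9%), 2 with FPKM (8.41%) and 10 with only the genotypes compared (16.9%). With median-ratio scaling and Cre/Cre replicate 1 left out it was 9 (16.8%). Over the fits that left out 1 library it ranged from 1 to 10. It was 1 without +/+ replicate 3 (5.15%), 2 without Cre/+ replicate 3 (7.03%) and 10 without Cre/Cre replicate 1 (16.4%). In Cre/Cre it was 2 (6.97%), 1 without the filter (5.44%) and 1 with FPKM (8.46%). With median-ratio scaling and Cre/Cre replicate 1 left out it was 7 (9.59%). Over the fits that left out 1 library it ranged from 1 to 8, the latter without Cre/Cre replicate 1 (9.47%). Between Cre/Cre and Cre/+ it was 3 (6.58%), and 0 with median-ratio scaling and Cre/Cre replicate 1 left out (4.95%). Over the fits that left out 1 library it ranged from 0 without Cre/Cre replicate 1 (4.97%) to 7 without Cre/Cre replicate 3 (12.5%). In the trend it was 2 (6.24%), 1 without the filter (5.02%) and 1 with FPKM (8.09%). With Xist as a covariate it was 1 both on TPM (4.52%) and with median-ratio scaling (5.9%). With median-ratio scaling and Cre/Cre replicate 1 left out it was 8 (9.38%). Over the fits that left out 1 library it ranged from 0 without +/+ replicate 3 (4.97%) to 9 without Cre/Cre replicate 1 (9.34%). Leaving out a library also removes residual degrees of freedom. In Cre/+ the median SE of the members was 0.092 in the main fit, 0.071 without Cre/Cre replicate 1 and 0.069 with only the genotypes compared. Their median log2 fold change was 0.068 in each of these fits. The cause of the changed counts was not tested.

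Correlations of the deviations from genotype means lay between -0.116 and 0.128 for same-numbered libraries of different genotypes. For differently numbered ones they lay between -0.194 and 0.261. With 3 libraries per genotype, these values cannot decide whether the numbers pair the libraries. With the replicate block, 0 members were called, and 5, 2 and 3 members had an unadjusted p under 0.05 in Cre/+, Cre/Cre and Cre/Cre against Cre/+, the same counts as without it. Of all genes, 9.84%, 6.69% and 6.12% were under that limit with the block. With 3 mice per genotype and 1 estimate of the spread from all 9 libraries, the unadjusted 95% intervals had a median half-width of 0.20. At that half-width, a smaller difference leaves 0 inside the interval. Half-widths differed between members, and the interval of Ift52 between Cre/Cre and Cre/+ left out 0 at a log2 fold change of -0.18. Larger differences could also fail the adjusted limit, as did that of Ift22 in Cre/+ (-0.32, adjusted p = 0.327, limma).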
